A study of Mus musculus with 2 samples.

Results

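The 10 imprinted loci linked to stem cell quiescence were followed in BM LSKs, namely the noncoding RNA genes H19, Meg3, Rian and Mirg and the coding genes Ndn, Plagl1, Peg3, Grb10, Igf2r and Gnas. They were taken by gene symbol from tables of 34745 genes, and all 10 have a row there. The RNA came from Scl/tTA-BA mice on a C57BL/6 background, in which withdrawal of doxycycline lets a tTA driven by Scl switch on BCR/ABL (BA). The week-0 LSKs were the control before induction and the week-3 LSKs were taken 3 weeks after it. Both groups carry the transgenes. LSKs are bone marrow cells that lack lineage markers and carry Sca1 and c-Kit, and each library was made from the sorted cells of 3 mice mixed together. With 1 library per time point there is no replicate check, and every test here compares 2 libraries, not 2 conditions.

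An imprinted gene is expressed mainly from the allele of a single parent, because that allele carries or lacks DNA methylation at a control region set in the germ line. Imprinted genes lie in clusters and many of them regulate growth through IGF signalling, the cell cycle or cell differentiation. In hematopoietic stem cells, H19, the noncoding RNAs of the Dlk1-Dio3 cluster and Ndn have been linked to the maintenance of the quiescent state. The reads here were not assigned to a parental allele, so the values below are totals over both alleles.

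The depth was 6356164 gene reads at week-0 against 3886695 at week-3, a ratio of 1.635, so a gene with an unchanged share of the reads is expected to have 1.635 times fewer reads at week-3. A count of 0 allows up to 3 reads, which is 0.472 CPM (reads per 1000000 gene reads) at week-0 and 0.772 CPM at week-3. Of the sorting markers, Kit had 1391 reads at week-0 against 580 at week-3, and Ly6a, the gene of Sca1, had 434 and 199, and neither was called changed. Levels are FPKM, the fragments per kilobase of exon scaled to library depth, and changes are log2 ratios of FPKM, week-3 over week-0, with no pseudocount. The 95% intervals are exact (Poisson for a level, Clopper-Pearson for a ratio) and hold the counting error of the reads alone. They leave out the variation between mice. They also leave out that of amplification, since the cDNA was amplified and a read is not a molecule, so they are too narrow.

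Genes whose reads summed to at least 10 were tested, and a gene was called when edgeR's exact test, at an assumed biological coefficient of variation of 0.1, gave a Benjamini-Hochberg q-value under 0.05 with a ratio of at least 2 or at most 0.5. Ndn, Plagl1, Igf2r and Grb10 were called lower at week-3 and no member was called higher. Of the 10 members, 7 had enough reads to be tested, so 4 of 7 were called lower, where 13.6% of all 13689 genes tested were called lower and 9.35% were called higher. All 7 had a ratio below 1, against 47.8% of the genes tested. Their median log2 ratio was -1.61, and the median over all genes tested was 0.05. Genes with few reads enter the test through the library where they are higher, so the 4 of 7 describes the members tested and not all 10. The 10 members together had 261 reads at week-0 against 43 at week-3, where 160 would be expected at an unchanged share, or 41.1 and 11.1 CPM. The 6 members that were not called had 82 reads at week-0 against 24 at week-3. In bulk RNA, fewer cells that express a gene and less RNA of it per cell cannot be told apart.

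**Figure D1:**
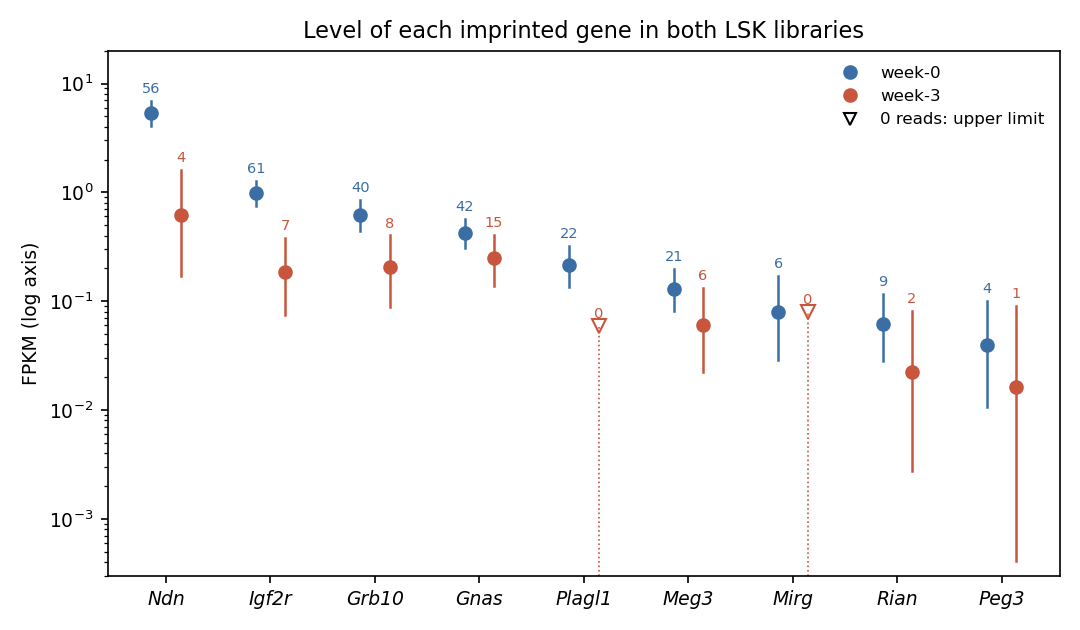
Level of the 9 imprinted genes with reads, as FPKM on a log axis, at week-0 (blue) and week-3 (red), with the number of reads above each point and exact 95% Poisson intervals as lines. Open triangles are the upper limits where no read was found. Ndn has the highest FPKM in both libraries, with 56 and 4 reads, though at week-3 its interval overlaps that of Gnas. The intervals of Ndn, Igf2r, Grb10 and Plagl1 do not overlap between the libraries.

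At week-0 the order of the FPKM levels was Ndn, Igf2r, Grb10, Gnas, Plagl1, Meg3, Mirg, Rian, Peg3 and H19. Ndn stood apart from Igf2r by its counting interval, and every other pair of neighbours overlapped. Ndn had a higher FPKM than 84.2% of all genes in the table, Igf2r than 68.8% and Meg3 than 54.9%, where genes without a read are included. These shares rest on the lengths by which the authors divided. At week-3 the order was Ndn, Gnas, Grb10, Igf2r, Meg3, Rian and Peg3, with H19, Mirg and Plagl1 at 0, and every pair of neighbours overlapped. With the exon lengths of GENCODE M21 Gnas comes first at week-3. The Ndn model there is longer than the Ndn row, so that order does not bear on the level of Ndn. All members except Ndn had an FPKM under 1 in both libraries, and each rests on at most 61 reads.

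For each of the 4 genes called lower, a listed promoter is shown so that its sequence can be set beside the level. They are the RefSeq promoters on GRCm38.p6, from 250 bases before to 50 after the start, read 5′ to 3′ on the strand of the gene. The letters in capitals are the hexamer TGCCGC or its reverse complement GCGGCA, the core that the imprint-protecting factor ZFP57 binds when it is methylated.
Ndn, chr7:62348027-62348326, plus strand: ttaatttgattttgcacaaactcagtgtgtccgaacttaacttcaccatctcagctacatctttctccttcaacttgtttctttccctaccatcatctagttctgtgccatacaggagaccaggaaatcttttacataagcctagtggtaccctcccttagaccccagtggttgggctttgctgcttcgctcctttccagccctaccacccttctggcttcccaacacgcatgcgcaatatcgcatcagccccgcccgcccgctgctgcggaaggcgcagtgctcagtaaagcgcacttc
Plagl1, chr10:13090582-13090881, plus strand: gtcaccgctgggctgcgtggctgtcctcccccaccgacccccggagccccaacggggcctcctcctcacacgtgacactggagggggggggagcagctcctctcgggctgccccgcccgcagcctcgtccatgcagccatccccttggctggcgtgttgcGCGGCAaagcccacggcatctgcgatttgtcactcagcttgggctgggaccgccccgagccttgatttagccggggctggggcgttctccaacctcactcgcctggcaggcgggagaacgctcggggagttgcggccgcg
Igf2r, chr17:12769657-12769956, minus strand: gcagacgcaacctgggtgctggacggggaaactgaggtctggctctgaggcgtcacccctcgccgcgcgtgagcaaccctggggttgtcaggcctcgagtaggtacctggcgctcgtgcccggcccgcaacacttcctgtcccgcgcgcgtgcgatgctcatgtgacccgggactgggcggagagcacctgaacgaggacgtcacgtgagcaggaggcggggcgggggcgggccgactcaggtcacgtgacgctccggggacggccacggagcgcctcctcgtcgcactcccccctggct
Grb10, chr11:12037371-12037670, minus strand: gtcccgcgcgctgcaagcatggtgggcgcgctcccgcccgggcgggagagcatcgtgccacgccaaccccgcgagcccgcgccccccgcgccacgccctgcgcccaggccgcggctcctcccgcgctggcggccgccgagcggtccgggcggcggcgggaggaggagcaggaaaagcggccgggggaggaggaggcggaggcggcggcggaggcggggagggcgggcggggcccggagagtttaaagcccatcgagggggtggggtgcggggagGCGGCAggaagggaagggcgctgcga
The Grb10 promoter held 45 CpG dinucleotides and was 80.0% G and C, the Igf2r promoter held 34, that of Plagl1 26 and that of Ndn 11. A further Grb10 promoter, chr11:12027922-12028221, held 9. The Plagl1 promoter lies inside the Plagl1 row, which starts at 13060504, so the row can also count transcripts that start upstream of it. Over the 14 promoters that RefSeq gives for 9 members, with none listed for H19, the median was 14.5 CpG with a range from 0 to 45, and the median over all 32851 promoters was 7. The hexamer was found on either strand in 3 of the 14, those of Plagl1, Grb10 and Meg3, and in 11.6% of all promoters. A match is a description of these letters, and methylation was not measured in these libraries.

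Ndn encodes necdin, a growth suppressor of the MAGE family that binds E2F1 and p53 and is expressed from the paternal allele. It lies on chromosome 7 from 62348277 to 62349928 of GRCm38 (ENSMUSG00000033585). Ndn had 56 reads at week-0, an FPKM of 5.33 (4.03 to 6.93), against 4 at week-3, an FPKM of 0.623 (0.170 to 1.60). The level at week-3 was 8.56-fold lower, a log2 ratio of -3.10 (-5.02 to -1.66, q = 1.45e-05 in edgeR's exact test). At an unchanged share of the reads, 34.2 reads would be expected in place of the 4. Of the 9 members with reads, Ndn had the lowest ratio among those read in both libraries.

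Plagl1, also called Zac1, encodes a zinc finger transcription factor that can arrest the cell cycle, and it is expressed from the paternal allele. The gene spans chromosome 10 from 13060504 to 13131694 (ENSMUSG00000019817). Plagl1 had 22 reads at week-0, an FPKM of 0.214 (0.134 to 0.324), but no read at week-3, where the upper limit was 0.0587. With 3 reads as the floor of the week-3 library it was at least 4.48-fold lower (q = 0.000931 in edgeR's exact test). That bound leaves out the counting error at week-0. At an unchanged share, 13.5 reads would be expected at week-3, and the interval of its log2 ratio ends at -1.74. Peg3, a paternally expressed zinc finger gene on chromosome 7 (6703892 to 6730421, ENSMUSG00000002265), had 4 reads at week-0 against 1 at week-3. Its log2 ratio of -1.29 had an interval from -6.91 to 2.05, and it had too few reads to be tested.

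The MAGE and PLAG families hold the close relatives of Ndn and Plagl1. Of 7 listed relatives, 6 were found in the tables by symbol (Nsmce3 was not), 5 were tested and 3 were called lower, beside 13.6% of all genes tested. Maged1, which encodes a MAGE protein that takes part in p75NTR and p53 signalling, had 286 reads at week-0 against 66 at week-3, a log2 ratio of -1.41 (-1.81 to -1.02). Maged2, an X-linked MAGE gene, had 90 and 20 reads, a log2 ratio of -1.46 (-2.24 to -0.75). Plagl2, a zinc finger relative of Plagl1, had 455 and 134 reads, a log2 ratio of -1.05 (-1.34 to -0.77). Plag1 had 27 and 7 reads (-1.24, q = 0.1451) and Mageh1 8 and 4 (-0.29), and neither was called. Magel2, the imprinted MAGE gene next to Ndn, had no read in either library, and the median of the 5 tested was -1.24. At a coefficient of 0.2, Maged1 kept its call (q = 0.0225) and Maged2 (q = 0.0604) and Plagl2 (q = 0.0879) did not.

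Grb10 and Igf2r both restrain growth signals of the IGF pathway and are expressed from the maternal allele in most mouse tissues. Igf2r encodes the mannose 6-phosphate receptor, which takes up IGF2 and carries it to lysosomes, and it spans chromosome 17 from 12682406 to 12769664 (ENSMUSG00000023830). Igf2r had 61 reads at week-0, an FPKM of 0.985 (0.753 to 1.27), against 7 at week-3, an FPKM of 0.185 (0.0743 to 0.381). The level was 5.33-fold lower, a log2 ratio of -2.41 (-3.79 to -1.28, q = 0.000109). The noncoding RNA gene Airn overlaps Igf2r on the opposite strand and silences it on the paternal allele in many tissues. Airn had 1 read in each library, and its exons share no base with those of Igf2r.

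Grb10 encodes an adaptor that binds and inhibits the insulin and IGF1 receptors, and in neurons it is expressed from the paternal allele instead. The gene lies on chromosome 11 from 11930508 to 12038683 (ENSMUSG00000020176). Grb10 had 40 reads at week-0, an FPKM of 0.623 (0.445 to 0.849), against 8 at week-3, an FPKM of 0.204 (0.0880 to 0.402), where 24.5 reads would be expected. It was 3.06-fold lower, a log2 ratio of -1.61 (-2.92 to -0.50, q = 0.0169). The call of Grb10 was lost at a biological coefficient of variation of 0.2 (q = 0.1091), whereas Ndn, Plagl1 and Igf2r kept theirs.

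**Figure D2:**
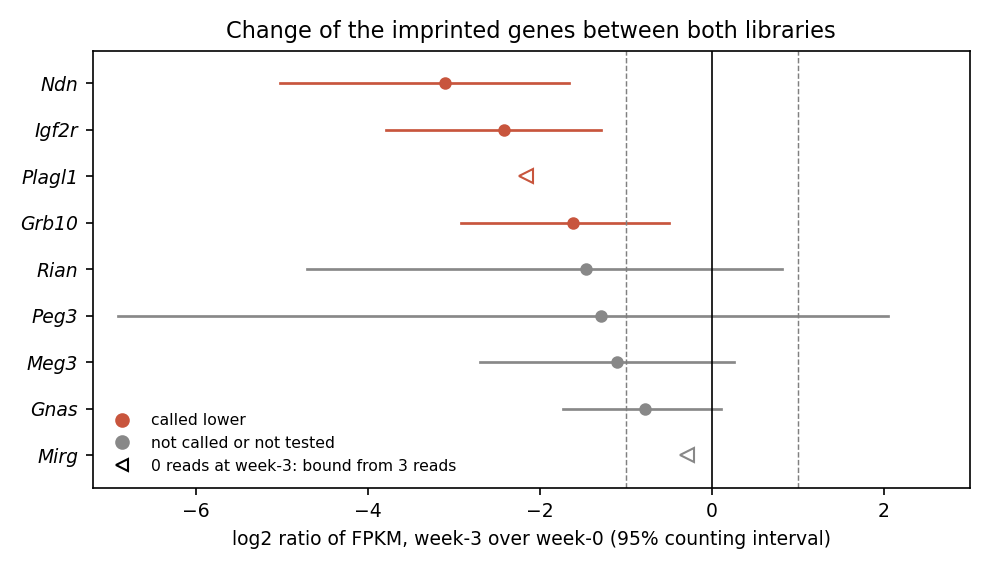
Log2 ratio of each member with reads, week-3 over week-0, with exact 95% counting intervals and with bounds where a library has 0 reads. Red marks the 4 genes called lower, and the intervals of Ndn, Igf2r and Grb10 lie below 0, as does that of Plagl1, which ends at -1.74, while those of Meg3, Rian, Peg3, Gnas and Mirg reach above it. The open triangles take 3 reads as the floor at week-3 and leave out the counting error at week-0.

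Of 21 listed genes of IGF and insulin signalling, 12 were tested, 2 were called lower and 1 higher, and the median log2 ratio was -0.16. The shares over all genes tested were 13.6% lower and 9.35% higher. Irs2, an adaptor that links the insulin and IGF1 receptors to PI3K, had 598 reads at week-0 against 96 at week-3, a log2 ratio of -1.93 (-2.26 to -1.62). Insr, the insulin receptor, had 321 and 76 reads, a log2 ratio of -1.37 (q = 7.61e-06). Igf2bp3, an RNA-binding protein of fetal cells, had 9 and 16 reads and was called higher at 1.54 (0.27 to 2.90, q = 0.0414). That call, the sole one in this direction, was lost at a coefficient of 0.2 (q = 0.212), under TMM, under median-of-ratios and without the filter on reads. Igf1r, the receptor that H19 and miR-675 are known to restrain, had 252 and 151 reads, a log2 ratio of -0.03, and was not called. The ligand gene Igf2, the paternally expressed neighbour of H19, had no read at week-0 and 1 at week-3.

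H19 is a maternally expressed noncoding RNA that serves as the precursor of miR-675, and it is located on chromosome 7 from 142575529 to 142578143 (ENSMUSG00000000031). H19 had no read in either library, so its level was under the limit that each depth allows and no ratio can be given. Meg3, Rian and Mirg are maternally expressed noncoding RNAs of the Dlk1-Dio3 cluster on chromosome 12, and they host many miRNAs and snoRNAs. Mature miRNAs lying within these members are shown because the gene rows are the precursors from which they are cut, with the seed (bases 2 to 8) in capitals. They come from RefSeq on GRCm38.p6, and a pair of them within Mirg shares the seed GGUUGCC.
miR-675-5p, in H19: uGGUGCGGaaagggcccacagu
miR-675-3p, in H19: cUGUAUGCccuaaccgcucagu
miR-770-5p, in Meg3: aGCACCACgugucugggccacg
miR-370-3p, in Rian: gCCUGCUGggguggaaccuggu
miR-453, in Mirg: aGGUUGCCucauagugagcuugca
miR-496a-5p, in Mirg: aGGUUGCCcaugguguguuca
RefSeq places 1 hairpin with 2 mature strands in H19, 1 with 2 in Meg3, 3 with 6 in Rian and 14 with 26 in Mirg, all on the strand of the host. The reads of the host genes do not measure the mature miRNAs, and the miRNA and snoRNA genes inside them have no row in the tables used here.

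Meg3 (chromosome 12 from 109541001 to 109571726, ENSMUSG00000021268) had 21 reads at week-0, an FPKM of 0.130 (0.0804 to 0.199), against 6 at week-3, an FPKM of 0.0607 (0.0223 to 0.132). Its log2 ratio was -1.10 (-2.70 to 0.26, q = 0.2367) and it was not called. Rian (109603940 to 109661716, ENSMUSG00000097451) had 9 reads at week-0 against 2 at week-3, a log2 ratio of -1.46 (-4.71 to 0.81, q = 0.505). Mirg (109729764 to 109749460, ENSMUSG00000097391) had 6 reads at week-0 against none at week-3, where the interval of its log2 ratio reaches up to 0.47, and it had too few reads to be tested. None of the RNAs was called, although each had fewer reads at week-3 than an unchanged share gives. Together, the 3 RNAs had 36 reads at week-0 against 8 at week-3, where 22.0 would be expected, and this sum was formed after the values were seen and has no test. Of the coding genes of the cluster, which are expressed from the paternal allele, Dlk1 had 8 and 2 reads (-1.29, q = 0.6624), and Rtl1 and Dio3 had none in either library. The lincRNA Gm26906 overlaps Meg3 on the opposite strand and Gm26945 lies within Rian, and both had no read.

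Gnas encodes the stimulatory G protein subunit Gs-alpha and several imprinted transcripts that start further upstream, and Gs-alpha itself is biallelic in most tissues. It spans chromosome 2 from 174284320 to 174346744 (ENSMUSG00000027523). The Gnas row had 42 reads at week-0, an FPKM of 0.423 (0.305 to 0.572), against 15 at week-3, an FPKM of 0.247 (0.138 to 0.407). Its log2 ratio was -0.78 (-1.73 to 0.10, q = 0.2528) and it was not called. The opposite-strand gene Gm20721, with no read in either library, shares 1466 of the 1716 bases (85.4%) of the principal Gs-alpha transcript in GENCODE M21. The cDNA kit does not mark strand and the rule for reads that fall on 2 genes is not given in the sources used here, so the level of Gs-alpha cannot be read from the Gnas row. Nespas, the antisense RNA of the locus, had 1 read in each library and shares 988 exon bases with Gnas.

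The pathway downstream of Gs-alpha, which raises cAMP and activates protein kinase A, was represented by 17 genes, all tested. Of these, 4 were called lower and 1 higher, with a median log2 ratio of -0.37. Among all genes tested, 13.6% were called lower and 9.35% higher. Crem, a cAMP-responsive transcription factor, had 318 reads at week-0 against 29 at week-3, a log2 ratio of -2.75 (-3.35 to -2.20). Pde4b, a cAMP phosphodiesterase, had 4020 and 718 reads (-1.78). Prkar1a, a regulatory subunit of protein kinase A, had 4633 and 1064 reads (-1.41). Adcy6, an adenylyl cyclase, had 80 and 17 reads (-1.53), and Pde4d, another phosphodiesterase, had 326 and 402 and was called higher (1.01). At a coefficient of 0.2, Adcy6 (q = 0.0567) and Pde4d (q = 0.0972) lost their calls, and Crem, Pde4b and Prkar1a kept theirs.

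**Figure D3:**
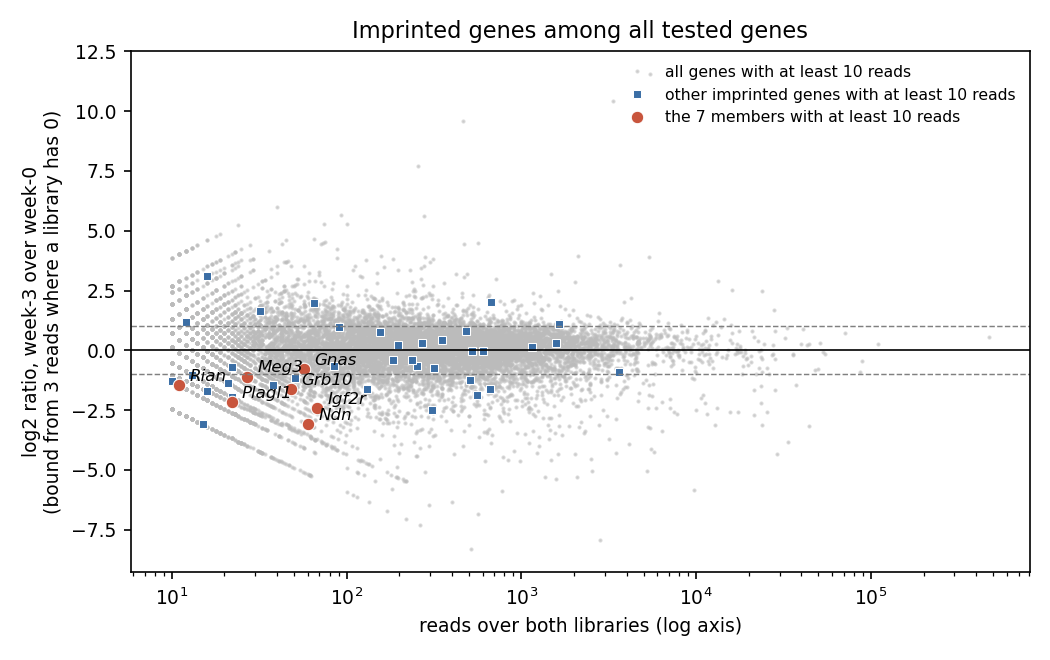
Log2 ratio of week-3 over week-0 against the reads of both libraries together, on a log axis, for all 13689 genes tested (grey), the 37 other imprinted genes (blue squares) and the 7 members tested (red, named). Dashed lines mark ratios of 0.5 and 2, and all 7 members lie below 0 and at the low end of the read axis.

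The members were compared with 64 other imprinted genes, of which 62 were found in the tables and 48 had reads. Of the 37 tested, 6 were called lower, 5 higher and 26 were not called, and 23 had a ratio below 1. Their median log2 ratio was -0.64. Over all genes tested, 13.6% were called lower, 9.35% higher, and 47.8% had a ratio below 1. Among the 21 maternally expressed genes tested, 3 were called lower and 2 higher. Slc22a3, a cation transporter of the Igf2r cluster, had 476 reads at week-0 against 80 at week-3 (-1.86, -2.22 to -1.52). Slc22a18, a transporter of the Kcnq1 cluster, had 109 and 22 reads (-1.60, -2.33 to -0.93). Trappc9, a vesicle transport gene, had 403 and 105 reads (-1.23, -1.55 to -0.92), and its maternal bias is known from brain. The split by allele follows what is known of each gene, and the allele expressed in these LSKs was not measured. Both genes of the maternal list called higher rose by more than the counting error. Gatm, an enzyme of creatine synthesis, had 193 and 480 reads (2.02, 1.78 to 2.27) and Copg2, a coat protein gene whose exons overlap Mest, had 19 and 46 (1.98, 1.19 to 2.84). Mest itself had 3 and 5 reads.

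Among the 16 paternally expressed genes tested, 3 were called lower and 3 higher. Nnat, a small membrane protein, had 279 reads at week-0 against 30 at week-3 (-2.51, -3.10 to -1.96). Peg13, a noncoding RNA inside Trappc9, had 553 and 111 reads (-1.61, -1.92 to -1.31). Peg10, a gene derived from a retrotransposon, had 16 reads at week-0 against none at week-3. From the floor of 3 reads, without the counting error at week-0, it was at least 3.26-fold lower. The interval of its log2 ratio ends at -1.24. The genes called higher were Snrpn, Kcnq1ot1 and Ddc. Snrpn, a splicing protein gene of the Ndn cluster, had no read at week-0 and 16 at week-3. From the same floor, without the counting error at week-3, it was at least 8.72-fold higher. The interval of its log2 ratio starts at 2.66, and 34.1% of its exon bases are shared with other genes. Kcnq1ot1, a noncoding RNA, had 707 and 936 reads (1.11, 0.97 to 1.26). Ddc, the neighbour of Grb10, had 11 and 21 (1.64, 0.53 to 2.84). Within the cluster they share, Ndn was thus called lower and Snrpn higher. The other listed genes tested there were not called. Ube3a had 232 and 251 reads (0.82), Peg12 154 and 117 (0.31), Atp10a 231 and 84 (-0.75) and Mkrn3 10 and 3 (-1.03). At a coefficient of 0.2 the calls of Ddc (q = 0.1061) and Kcnq1ot1 (q = 0.0557) were lost, while that of Snrpn was kept (q = 0.00102).

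**Figure D4:**
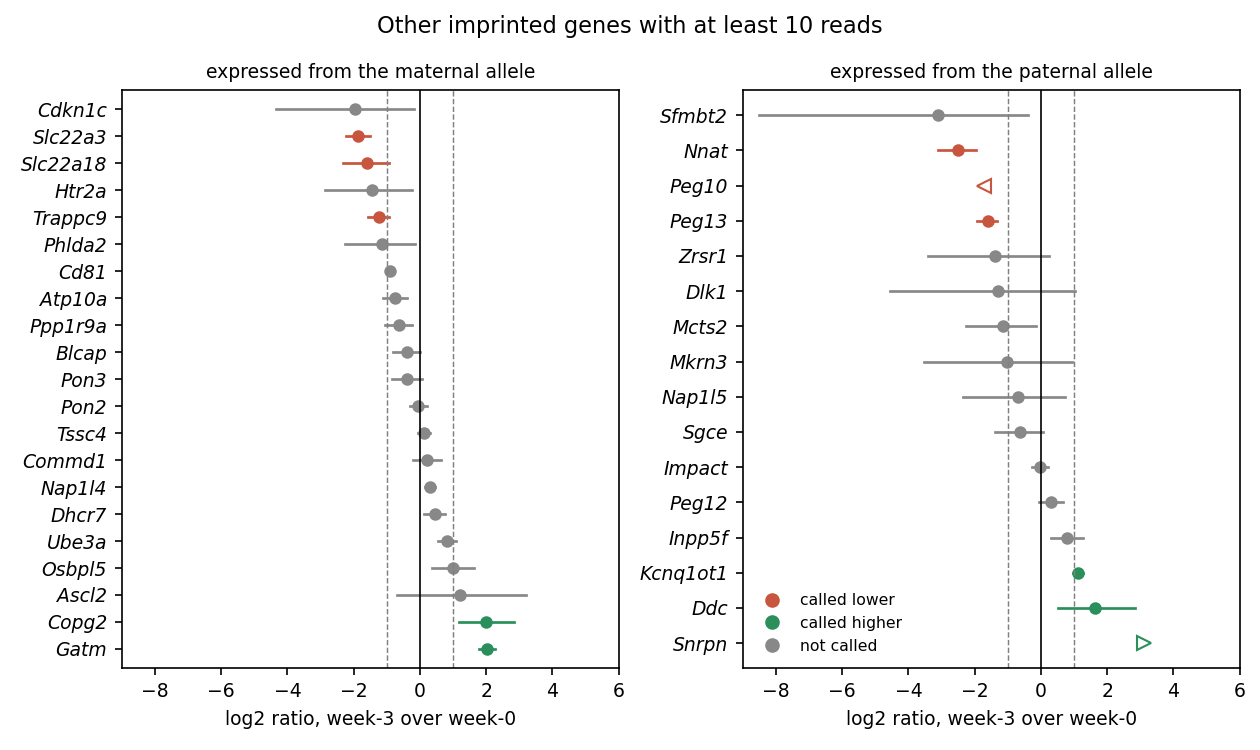
Log2 ratio of the 37 other imprinted genes tested, split by the parental allele from which each is known to be expressed. Lines are exact 95% counting intervals, and open triangles are bounds where a library has 0 reads. Dashed lines mark ratios of 0.5 and 2, and red and green mark the 6 genes called lower and the 5 called higher.

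Cdkn1c, the maternally expressed CDK inhibitor p57 of quiescent stem cells, had 19 reads at week-0 against 3 at week-3. Its log2 ratio was -1.95 (-4.35 to -0.19), and with q = 0.0654 it was not called. Usp29, a neighbour of Peg3, and Zim1 had no read in either library.

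The imprint maintenance genes were mostly not called, and their list also holds Tet1, Tet2 and Tet3, which oxidise methylated cytosine. Of 20 listed genes, 18 were tested, 1 was called lower and 2 higher, and the median log2 ratio was 0.38. For all genes tested the shares were 13.6% lower and 9.35% higher. The gene called lower, Tet1, belongs to these oxidising enzymes and not to the factors that keep imprints in place. It had 258 reads at week-0 against 72 at week-3 (-1.13, -1.53 to -0.75). Hells, a remodeller needed for DNA methylation, had 196 and 254 reads (1.08, 0.81 to 1.36), and Cbx5, a heterochromatin protein, had 625 and 773 (1.02, 0.86 to 1.17). Both lost their call when the libraries were scaled by TMM, which moved every log2 ratio by -0.11. Zfp57, the factor that binds the hexamer, had 38 and 17 reads (-0.45), and its partner Trim28 had 1263 and 968 (0.33), and neither was called.

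Lists of stromal and endothelial genes also differed between the libraries, and which cells gave these reads was not tested. Beside the counts of this and the next paragraph, 13.6% of all genes tested were called lower and 9.35% higher. Among 14 stromal genes 8 were tested and 5 were called lower, and their sum was 103 CPM at week-0 and 60.7 at week-3. Pdgfrb held most of these reads (465 and 220), and the other 13 had 189 and 16 reads, with 8 of the 14 at 0 at week-3. Of these 8, Sparc and Postn, with 13 and 11 reads at week-0, were called lower. The rest of the 8, among them Lepr with 2 and Pdgfra with 6 reads at week-0, had too few reads to be tested. Of 9 endothelial genes, 4 of 7 tested were called lower, with 348 and 148 CPM. Eng alone held 220.6 and 73.8 CPM of these sums. It is not confined to endothelium, so the list does not single out endothelial cells from the LSKs themselves. Of the 7 tested, 6 had a ratio below 1, and the other was Pecam1 (260 and 189 reads, 0.25, not called). Cdh5 and Kdr were at 0 at week-3, but their week-0 counts were just 3 and 4, too few to be tested. Within the LSK gate, the 14 long-term HSC genes had 4 called lower and 1 higher, and 556 and 387 CPM. Their median log2 ratio was -0.76. Fgd5 had the lowest ratio of the list, with 47 and 3 reads (-3.26). Ltb4r1, the gene called higher, had 139 and 201 reads (1.24). The 8 lymphoid-primed genes had 5 of 6 tested called lower, with 1650 and 621 CPM.

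The sum of the 10 erythroid genes was 1535 CPM at week-0 and 183 at week-3, with 6 called lower and 1 higher. The 4 globin genes held most of it, 1387 against 84.6 CPM, and the other 6 genes had 148 against 98.3 CPM, with 2 called lower and 1 higher. The 9 B and plasma cell genes went from 4802 to 499, with 5 of 7 tested called lower. All 8 mast cell genes were called higher, from 129 to 3961 CPM, as were all 10 neutrophil genes, from 3116 to 13682. The part of these lists in the lower counts of Ndn, Plagl1, Igf2r and Grb10 was not tested.

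**Figure D5:**
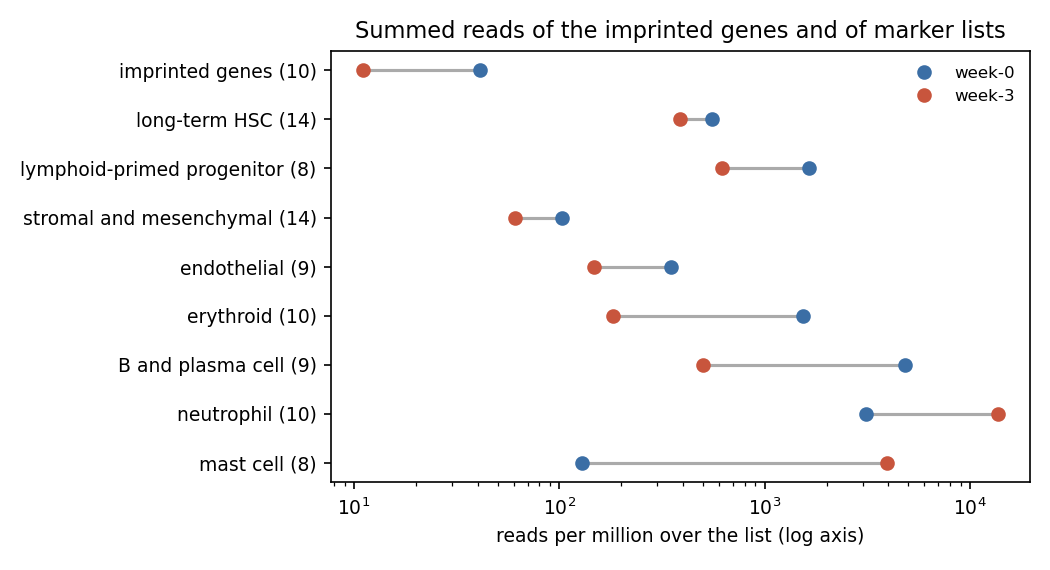
Summed CPM of the 10 imprinted genes and of each marker list at week-0 (blue) and week-3 (red) on a log axis. The imprinted genes went from 41.1 to 11.1, while the mast cell list went from 129 to 3961 and the B and plasma cell list from 4802 to 499.

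The level of a member also depends on the length by which the authors divided, while its ratio does not. The length implied by the reads and FPKM was the same in both libraries within 0.008%. It is not the exon length for every gene, since Tssc4, with 1 exon block of 1845 bases, had an implied length of 6308 bases. For Ndn it was 1652 bases, 0.447 times the exon length in GENCODE M21, and for Plagl1 it was 16158 bases, 2.07 times that length. With the GENCODE lengths, Ndn at week-0 had 2.39 RPKM, before Igf2r with 1.03. At week-3 the order of the top members turned with these lengths, with 0.345 for Gnas, 0.279 for Ndn and 0.227 for Grb10. The 1652 bases are the whole span of the Ndn row, and the GENCODE M21 gene is longer. Its GENCODE values thus divide reads of a shorter model by a longer length and can be too low.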

How the data were processed

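RNA of sorted BM LSKs was sequenced in 2 libraries, 1 at week-0 and 1 at week-3. The authors amplified cDNA with a SMARTer kit that does not mark strand, sequenced it from both ends and, after trimming, used TopHat 2.0.9 for mapping to GRCm38. The deposited values are raw counts of reads per gene and FPKM, which the authors scaled by a length per gene and by library depth. The counting tool and annotation release are not given in the sources used here.

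Genes with at least 10 reads over both libraries (13689) were tested with edgeR 4.0.16 in R 4.3.3 on the deposited counts, by the exact test at a fixed biological coefficient of variation of 0.1, since the spread cannot be estimated without replicates. Called genes had q under 0.05 and a ratio of at least 2 or at most 0.5. The quasi-likelihood test was not used, because it needs replicates. Alternatives were assumed coefficients of 0.2 and 0.4, an exact binomial test, fold limits of 1.5 and 0.67, TMM, median-of-ratios (DESeq2 1.42.0), other filters and a pseudocount of 1. Procedures were tested on simulated data. The counts for edgeR's test were simulated at the same coefficient of 0.1, so that value was not checked. Of 100 genes changed 4-fold at 20 to 70 reads over both libraries, 58 were called. Over 70 reads, 100 of 100 were called, and 1 of 13485 unchanged genes was called. Strand, exons and transcripts come from GENCODE M21, and promoters and miRNAs from RefSeq (GRCm38.p6). Tables and figures were made in Python 3.11.15 with scipy 1.17.1, pandas 2.3.3, numpy 2.4.6 and matplotlib 3.10.9.

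The members and gene lists were chosen with earlier results of these data known, and Commd1 and Trappc9 were moved from the paternal to the maternal list after the values were seen, since their known bias is maternal. The text names all members, every called gene of the imprinted, imprint maintenance, IGF and cAMP lists, the MAGE and PLAG relatives, overlapping genes, Cdkn1c and the cluster neighbours Igf2, Dlk1, Rtl1, Dio3, Magel2, Snrpn, Usp29, Zim1, Ddc, Airn and Nespas. Igf1r, Mest, Zfp57, Trim28, Ube3a, Peg12, Atp10a, Mkrn3 and the marker genes were added after their values were seen. A result for 1 marker gene is not reported here, and its list was summed without it.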

Additional observations from a re-analysis of the deposited data

How the results depend on the processing

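The assumed variation between mice moved the calls most. At a biological coefficient of variation of 0.4, edgeR's exact test called 0 of the 10 members, 0 other imprinted genes, 0 imprint maintenance genes and 0 IGF and insulin genes, and at 0.2 it called 3 members and 0 imprint maintenance genes. With 1 library per time point this variation cannot be estimated. TMM scaling gave 17 other imprinted genes called in place of 11, with 5 higher and 12 lower, and 1 imprint maintenance gene in place of 3, as did median-of-ratios scaling with 1. For the other imprinted genes, the exact binomial test and median-of-ratios scaling each gave 16 calls, 5 higher and 11 lower. Fold limits of 1.5 and 0.67 gave 16, 8 higher and 8 lower, and a coefficient of 0.2 gave 9, 3 higher and 6 lower. The split of 6 lower and 5 higher thus depends on the setting. With the wider fold limits 7 imprint maintenance genes were called. On the log2(FPKM + 1) scale, which pulls low genes towards 0, the median log2 ratio of the members was -0.28, with -0.43 for Grb10 and -0.74 for Igf2r. The members called were Ndn, Igf2r, Grb10 and Plagl1 under the exact binomial test, TMM, median-of-ratios, the wider fold limits, no filter and the counting interval in place of q, an alternative chosen after seeing the data. With the test limited to genes read in both libraries, Plagl1 was not tested and 3 members were called. No call or log2 ratio of the members was reversed, but the alternatives run could not turn a ratio below 1. The scalings moved every log2 ratio further down, by -0.11 and -0.09, and a pseudocount keeps the sign. No alternative was run over the whole cAMP, MAGE and PLAG and marker lists. Members with under 10 reads were left untested by the filter. Without it Mirg (q = 0.188) and Peg3 (q = 0.873) were not called. No paired analysis was possible because each time point has 1 library.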
